A study of Mus musculus with 6 samples.

Results

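Simple epithelial keratins were followed in mouse embryonic fibroblasts that carried different numbers of working Foxd1 copies and were being reprogrammed towards pluripotency. The 4 genes are Krt7, Krt8, Krt18 and Krt19. They were chosen by name, as keratins of single-layered epithelia, and each is read by 1 probe set whose platform annotation lists that symbol alone, so all 4 of 4 were measured among 19938 named genes. Embryonic fibroblasts are cultures grown from mouse embryos, and those used here were Foxd1+/+, Foxd1+/- or Foxd1-/-. Every culture had received retroviruses carrying Oct4, Sox2 and Klf4 on day 0 and was harvested on day 8, so no array holds cells without the 3 factors. Each genotype had 2 single-colour Affymetrix arrays, labelled as biological replicates 1 and 2. Whether they came from separate embryos is not stated. Sex-linked RNA, given below, differed within Foxd1+/+ and within Foxd1+/-, so those pairs were not repeat readings of the same cells. It did not differ in this way within Foxd1-/-. The p-values cover only array-to-array spread, which may be technical for Foxd1-/-. The sources used here give neither the embryonic age, the strain, the Foxd1 allele nor the share of cells that took up the viruses.

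Keratins are intermediate filament proteins that assemble only in pairs of an acidic type I chain and a basic type II chain. Krt8 (type II) and Krt18 (type I) are partners and are the first keratins made in the mouse embryo, while Krt7 (type II) and Krt19 (type I) join them in ductal, mesothelial and trophoblast epithelia. Fibroblasts build their filaments from vimentin instead, and cells on the way to pluripotency exchange mesenchymal for epithelial features, a step in which Krt8, Krt18 and Krt19 are common markers.

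Keratin genes lie in a type II cluster and a type I cluster on separate chromosomes, and Krt18 is the type I gene that sits beside its partner Krt8 in the type II cluster. The upstream sequences of 3 of the 4 members are held in the RefSeq promoter table used here (build GRCm38.p6), and the annotated starts of Krt8 and Krt18 lie 23.9 kb apart on opposite strands. They are shown because the reprogramming cells hold both an added zinc-finger factor, Klf4, and the fibroblast repressors of the Snail and Zeb families, whose usual E-box is CACCTG. Each run below gives the 250 bases before the annotated start, 5′ to 3′ on the gene's strand, with CACCTG in capitals.
Krt7, chr15:101412153-101412402, plus strand: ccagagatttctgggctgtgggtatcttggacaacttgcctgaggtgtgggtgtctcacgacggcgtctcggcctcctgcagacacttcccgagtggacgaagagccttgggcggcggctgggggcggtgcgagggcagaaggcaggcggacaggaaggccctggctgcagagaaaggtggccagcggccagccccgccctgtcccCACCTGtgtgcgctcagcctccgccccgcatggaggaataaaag
Krt8, chr15:102004343-102004592, minus strand: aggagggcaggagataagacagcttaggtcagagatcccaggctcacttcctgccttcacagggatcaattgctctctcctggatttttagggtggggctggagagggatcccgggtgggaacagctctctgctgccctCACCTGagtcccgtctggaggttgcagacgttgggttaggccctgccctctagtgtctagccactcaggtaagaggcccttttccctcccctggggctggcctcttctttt
Krt18, chr15:102027966-102028215, plus strand: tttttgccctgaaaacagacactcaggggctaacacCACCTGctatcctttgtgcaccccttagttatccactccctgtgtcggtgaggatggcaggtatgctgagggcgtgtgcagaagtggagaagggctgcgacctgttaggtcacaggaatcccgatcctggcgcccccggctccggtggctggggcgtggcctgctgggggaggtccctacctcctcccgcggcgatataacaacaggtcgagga

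Each of the 3 windows held CACCTG once, beginning 44 bases before the start in Krt7, 111 in Krt8 and 214 in Krt18, in the gene's own orientation. Searched on both strands (CACCTG or CAGGTG), this sequence was present in 17.2% of the 32851 windows of the same length in the table. A Klf-like sequence, GGGNGTG or its reverse CACNCCC, occurred 3 times in the Krt18 window, beginning 181, 145 and 63 bases before the start, was not found in the Krt7 and Krt8 windows, and was present in 26.1% of all windows. The AP-1-like sequence TGANTCA was in none of these 3 windows and in 6.75% of all windows. No matches of the 3 searched sequences overlapped one another. The E-box search was chosen after the windows had been read, and a match is a description of the letters and not of binding.

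The state of the arrays bears on every comparison. Foxd1 read 189 and 213 in linear probe set intensity on the arrays labelled Foxd1-/-, against 1907 and 1169 on those labelled Foxd1+/+ and 1014 and 2074 on those labelled Foxd1+/-. The lower Foxd1+/+ array thus read below the higher Foxd1+/- array, which goes against the labels, and directions below are those of the arrays as labelled. Sex-linked RNA also differed: Xist, the RNA of the inactive X chromosome, read 35.2 on Foxd1+/+ array 2 and 33.7 on Foxd1+/- array 1, and between 514 and 848 on the other 4 arrays. The Y-linked Uty read 274 and 244 on those same 2 arrays and between 23.6 and 25.9 elsewhere. Both Foxd1-/- arrays therefore carried high Xist and low Uty, while each of the other genotypes had 1 array of either kind. Median intensity was 76.5 to 79.6 per array, and with no detection call the signal of a dim gene over background is unknown. The fibroblast markers Col1a1 (4368 to 7143), Col1a2 (5345 to 7098), Thy1 (870 to 1009) and Pdgfra (237 to 478) were read on all 6 arrays.

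In limma's fit over all named genes none of the 4 passed an adjusted p of 0.05 in any comparison, where the share of all genes passing was 0%, and the spread of each keratin over all 6 arrays stayed within 1.27-fold for Krt7, 1.34-fold for Krt18, 1.35-fold for Krt19 and 1.47-fold for Krt8. Krt18 read higher on both Foxd1-/- arrays than on the other 4 arrays, where 10.8% of all genes did not overlap in either direction. Krt19 read lower on both Foxd1+/- arrays than on the other 4, for which the share of all genes was not counted. Krt8 had the widest spread of the 4 keratins, and its arrays differed within each genotype. For comparison, the median gene ranged over 0.23 on the log2 scale across the 6 arrays, and 71.0% of genes ranged less than Krt7, 80.1% less than Krt18, 80.5% less than Krt19 and 88.1% less than Krt8.

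**Figure D1:**
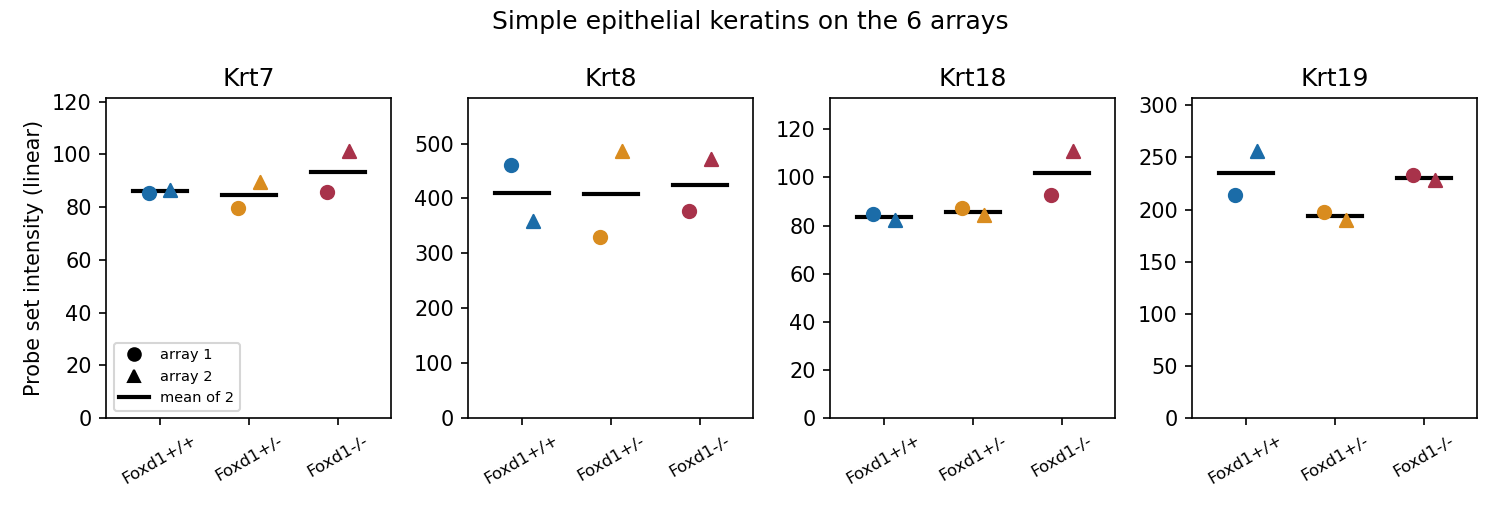
Linear probe set intensity (vertical axes, from 0) of Krt7, Krt8, Krt18 and Krt19 on the arrays of each genotype; circles are replicate 1, triangles replicate 2 and bars the mean of 2. Both Foxd1-/- arrays lie above the other 4 for Krt18 (92.8 and 111), both Foxd1+/- arrays lie below the other 4 for Krt19 (198 and 190), and the arrays of a genotype lie far apart for Krt8.

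Among the type II members, Krt8, the chain that is made first in the embryo and pairs with Krt18, read 461 and 359 on the arrays labelled Foxd1+/+, 331 and 486 on Foxd1+/-, and 377 and 472 on Foxd1-/-. High and low arrays occurred in every genotype, and all 3 pairs of genotypes overlapped. The means were 410 ± 72.2 for Foxd1+/+, 408 ± 110 for Foxd1+/- and 425 ± 67.3 for Foxd1-/- (linear intensity, SD, n = 2 each), an order in which no neighbours differed beyond their spread. The log2 difference was 0.05 ± 0.24 between Foxd1-/- and Foxd1+/+ (SE; 95% interval -0.58 to 0.69), 0.07 ± 0.24 between Foxd1-/- and Foxd1+/- (-0.56 to 0.71) and -0.02 ± 0.24 between Foxd1+/- and Foxd1+/+ (-0.66 to 0.61), with limma adjusted p of 0.99985 or above. These intervals still allow differences of up to 1.64-fold upwards and of 0.635-fold downwards. Within replicate 1 the Foxd1-/- array was lower than the Foxd1+/+ array by a log2 difference of -0.29, and within replicate 2 it was higher by 0.40. The difference from Foxd1+/+ became -0.13 without Foxd1+/+ array 2 and -0.11 without Foxd1-/- array 2.

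The 2 arrays lowest in Krt8, Foxd1+/- array 1 (331) and Foxd1+/+ array 2 (359), were the 2 with low Xist and high Uty. Foxd1-/- array 1, with high Xist and low Uty, was next at 377. The 2 Foxd1-/- arrays, alike in these sex-linked genes, differed by 0.32 in log2 Krt8. Within Foxd1+/+ and within Foxd1+/-, the array with high Xist was also the higher in Krt8 and in Foxd1, so the 3 readings cannot be told apart there. Cdh1, the epithelial cadherin, read 681 and 502 for Foxd1+/+, against 501 and 637 for Foxd1+/- and 625 and 609 for Foxd1-/-. Its Pearson correlation with Krt8 over the 6 arrays (log2, given as a description) was 0.81. With the other members the correlation of Cdh1 was lower, at 0.36 for Krt7, 0.21 for Krt18 and -0.25 for Krt19. The epithelial adhesion gene Epcam read 483 and 313, 396 and 425, and 359 and 226 in the same order. Epcam was thus lowest on Foxd1-/- array 2, where Krt8 read 472, and its correlation with Krt8 was not computed. With the 2 Uty-high arrays left out, chosen after seeing the data, the log2 difference of Krt8 was -0.13 between Foxd1-/- and Foxd1+/+ and -0.20 between Foxd1-/- and Foxd1+/-. Each is by construction the difference without the 1 left-out array of the genotypes compared. The part of sex-linked differences and of Foxd1 level in the Krt8 values was not tested.

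**Figure D2:**
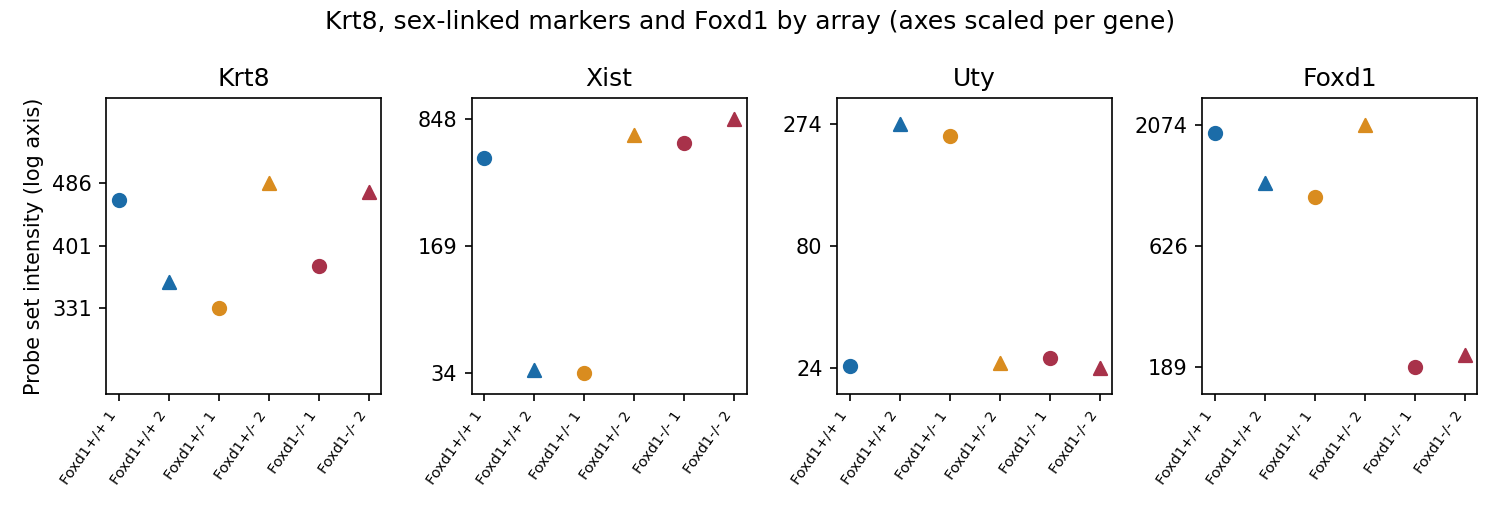
Linear intensity on log axes, scaled per gene, of Krt8, the X-linked Xist, the Y-linked Uty and Foxd1 on each of the 6 arrays; colours mark genotypes. The arrays with Xist at 35.2 and 33.7 and Uty at 274 and 244 are the 2 with the lowest Krt8 (359 and 331), and Foxd1-/- array 1, with high Xist, is next (377).

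Krt7, the type II keratin of ducts and mesothelium, read 85.2 and 86.6 for Foxd1+/+, against 79.7 and 89.5 for Foxd1+/- and 85.7 and 101 for Foxd1-/-. Foxd1-/- array 2 was the highest of the 6, and the other Foxd1-/- array lay between the Foxd1+/+ arrays. Means were 93.4 ± 10.9 in Foxd1-/-, 85.9 ± 0.9995 in Foxd1+/+ and 84.6 ± 6.95 in Foxd1+/- (linear intensity, SD, n = 2 each), and neighbours in this order did not differ beyond their spread. The log2 difference of Foxd1-/- was 0.11 ± 0.10 from Foxd1+/+ (SE; 95% interval -0.16 to 0.39) and 0.14 ± 0.10 from Foxd1+/- (-0.13 to 0.41), and that of Foxd1+/- from Foxd1+/+ was -0.03 ± 0.10 (-0.30 to 0.25), each with a limma adjusted p of 0.99985 or above. Without Foxd1-/- array 2 the first of these was -0.003. Krt7 was the only member that read higher on array 2 than on array 1 in all 3 genotypes, by 0.02, 0.17 and 0.24 in log2 for Foxd1+/+, Foxd1+/- and Foxd1-/-.

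Among the type I members, Krt18, the partner of Krt8, read 84.9 and 82.4 for Foxd1+/+, against 87.1 and 84.5 for Foxd1+/- and 92.8 and 111 for Foxd1-/-. Both Foxd1-/- arrays lay above the other 4, which were within 82.4 to 87.1 of one another, and the Foxd1+/+ and Foxd1+/- arrays overlapped. Means were 102 ± 12.7 in Foxd1-/-, 85.8 ± 1.82 in Foxd1+/- and 83.6 ± 1.75 in Foxd1+/+ (linear intensity, SD, n = 2 each). These lie near the array medians of 76.5 to 79.6, so the share of Krt18 signal above background is unknown. Krt18 was 1.21-fold higher in Foxd1-/- than in Foxd1+/+ (log2 difference 0.28 ± 0.10 SE; 95% interval 0.02 to 0.53; limma unadjusted p = 0.038, adjusted p = 0.99985) and 1.18-fold higher than in Foxd1+/- (0.24 ± 0.10; -0.01 to 0.49; limma unadjusted p = 0.059, adjusted p = 0.99999). The separation is read against a background in which 25.7% of all genes did not overlap between Foxd1-/- and Foxd1+/+, in either direction, and 25.6% did not between Foxd1-/- and Foxd1+/-. Against all 4 other arrays together 10.8% of genes did not overlap, and the log2 difference of Krt18 from the mean of the other genotypes was 0.26 ± 0.08 (95% interval 0.04 to 0.48; limma unadjusted p = 0.030, adjusted p = 0.99971).

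The size of the Krt18 difference varied with the Foxd1-/- array used. Within replicate 1 Foxd1-/- exceeded Foxd1+/+ by a log2 difference of 0.13, and within replicate 2 by 0.42. Without Foxd1-/- array 2 the difference from Foxd1+/+ was 0.15, and without Foxd1-/- array 1 it was 0.40. Without the 2 Uty-high arrays, of which only Foxd1+/+ array 2 enters this difference, it was 0.25, against 0.28 on all arrays. Its partner Krt8 overlapped between the same genotypes, and the Pearson correlation of log2 Krt18 and Krt8 over the 6 arrays, given as a description, was 0.31. Krt18 and Krt7 were the most alike of the 6 pairs of members, with a correlation of 0.77, and Krt8 and Krt19 the least, with -0.27.

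Krt19, the smallest keratin, read 214 and 256 for Foxd1+/+, against 198 and 190 for Foxd1+/- and 233 and 229 for Foxd1-/-. Both Foxd1+/- arrays lay below the other 4, while the Foxd1-/- arrays lay between the Foxd1+/+ arrays. Means were 235 ± 29.5 in Foxd1+/+, 231 ± 2.81 in Foxd1-/- and 194 ± 5.55 in Foxd1+/- (linear intensity, SD, n = 2 each). The log2 difference of Foxd1+/- from Foxd1+/+ was -0.27 ± 0.10 (SE; 95% interval -0.53 to -0.02; limma unadjusted p = 0.041, adjusted p = 0.99999), a 1.21-fold lower level. The difference of Foxd1-/- from Foxd1+/- was 0.25 ± 0.10 (-0.005 to 0.50; limma unadjusted p = 0.053, adjusted p = 0.99999), and that of Foxd1-/- from Foxd1+/+ was -0.02 ± 0.10 (-0.27 to 0.23). Between Foxd1+/- and Foxd1+/+ 20.4% of all genes did not overlap, and between Foxd1-/- and Foxd1+/- 25.6% did not. The share of genes that separate Foxd1+/- from all 4 other arrays was not counted. Without Foxd1+/+ array 2 the Foxd1+/- difference was -0.14, without Foxd1+/+ array 1 it was -0.40, and without the 2 Uty-high arrays it was -0.17. This order rests on the labels alone, since Foxd1 itself did not separate the arrays labelled Foxd1+/+ from those labelled Foxd1+/-, and whether the labels of those 4 arrays are right was not tested.

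**Figure D3:**
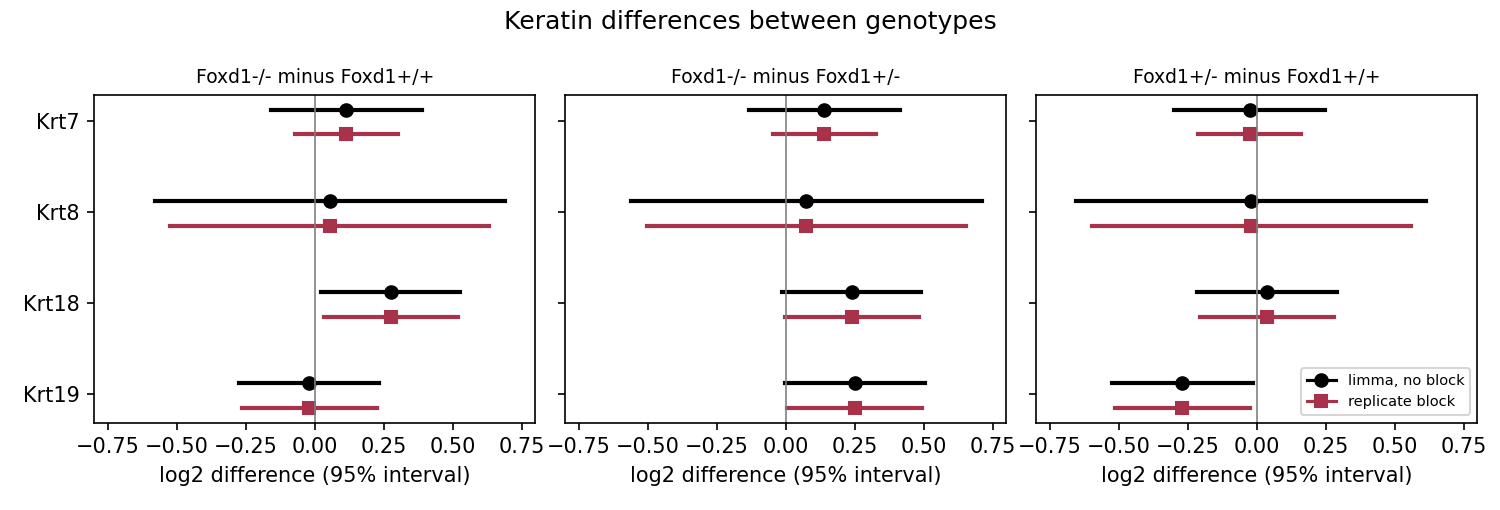
Log2 difference (horizontal axes) of each keratin in the 3 pairs of genotypes with its 95% interval from limma, without a block (black circles) and with the replicate number as a block (red squares). Without a block, intervals that leave out 0 are those of Krt18 in Foxd1-/- minus Foxd1+/+ (0.02 to 0.53) and Krt19 in Foxd1+/- minus Foxd1+/+ (-0.53 to -0.02).

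Read as counts at an unadjusted limma p under 0.05, 1 of the 4 members (Krt18) differed between Foxd1-/- and Foxd1+/+, where 2.11% of all genes did, 0 of 4 between Foxd1-/- and Foxd1+/-, where 2.31% did, and 1 of 4 (Krt19) between Foxd1+/- and Foxd1+/+, where 0.973% did. Krt18 was also the 1 of 4 that differed between Foxd1-/- and the mean of the other genotypes, where 2.75% of genes did. With the replicate number as a block in limma, these shares of all genes were 7.54%, 7.56%, 2.01% and 9.21%. With the block Krt18 and Krt19 stayed under 0.05 in these comparisons, and Krt19 was added between Foxd1-/- and Foxd1+/- (limma unadjusted p = 0.047, adjusted p = 0.66 with the block). Other settings ended these unadjusted calls: Krt18 between Foxd1-/- and Foxd1+/+ was at a limma unadjusted p of 0.067 when only the compared genotypes were fitted and 0.060 with an intensity trend. Krt19 between Foxd1+/- and Foxd1+/+ was at 0.073 and 0.061 under the same limma settings and at 0.055 among genes above the median mean. In the opposite direction, Krt19 between Foxd1-/- and Foxd1+/- was at a limma unadjusted p of 0.015 when only those genotypes were fitted. Unadjusted calls on the members therefore depended on how the spread was estimated. No gene passed the adjusted threshold with the block either. The 3 comparisons share arrays, so the Foxd1+/- values of Krt19 enter both of its differences and the Foxd1-/- values of Krt18 enter both of its differences.

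The other keratins, meaning all those listed outside the 4 members, gave 47 measured genes of 50 listed. Between Foxd1-/- and Foxd1+/+ 28 were higher and 19 lower, with a median log2 difference of 0.02 against 0.003 over all genes, and 0 passed in limma in either direction. At an unadjusted limma p under 0.05, 0 were lower and 0 higher, where 2.11% of all genes passed. With the replicate block 2 passed, where 7.54% of all genes did. Krt14, the basal epidermal type I keratin, read 100.4 and 103 on the Foxd1+/+ arrays, 98.6 and 84.1 on the Foxd1+/- arrays, and 114 and 137 in Foxd1-/-. Its Foxd1-/- arrays did not overlap the other 4, as held for 10.8% of all genes in either direction. Its log2 difference from Foxd1+/+ was 0.30 ± 0.12 (SE; limma unadjusted p = 0.060). Its partner Krt5 read 55.9 and 51.3, 53.1 and 60.0, and 44.6 and 89.4 in the same order, so that Foxd1-/- held both the lowest and the highest array. Krt10, a keratin of differentiating epidermis, differed by 0.004 ± 0.07 from Foxd1+/+ and stayed between 59.3 and 67.4 on all 6 arrays. Krt6b, a keratin of wounded epidermis, differed by -0.32 ± 0.13, Krt12 of the cornea by 0.14 ± 0.06 and Krt16, another wound keratin, by 0.20 ± 0.08 (log2, SE).

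Across the 51 keratins measured, only 2 ranged over 1 or more on the log2 scale among the 6 arrays. Of the 9 that ranged over 0.5 or more, Krt8 was the only one of the 4 members. The widest was Krt13, a type I keratin of internal stratified epithelia, at 252 and 106 for Foxd1+/+, against 223 and 172 for Foxd1+/- and 184 and 133 for Foxd1-/-, lower on array 2 in each genotype. Krt20, a type I keratin of intestinal and urothelial cells, went the other way, at 67.8 and 101, 57.1 and 89.9, and 74.3 and 121, higher on array 2 in each genotype by 0.57 to 0.70 in log2. These 2 keratins, named for their range after their values were seen, differed in the same direction between array 1 and array 2 in all 3 genotypes. Of the 47 other keratins 11 differed the same way between array 1 and array 2 in all 3 genotypes (23.4%). Of the 4 members 1 did, Krt7, against 45.4% of all genes.

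**Figure D4:**
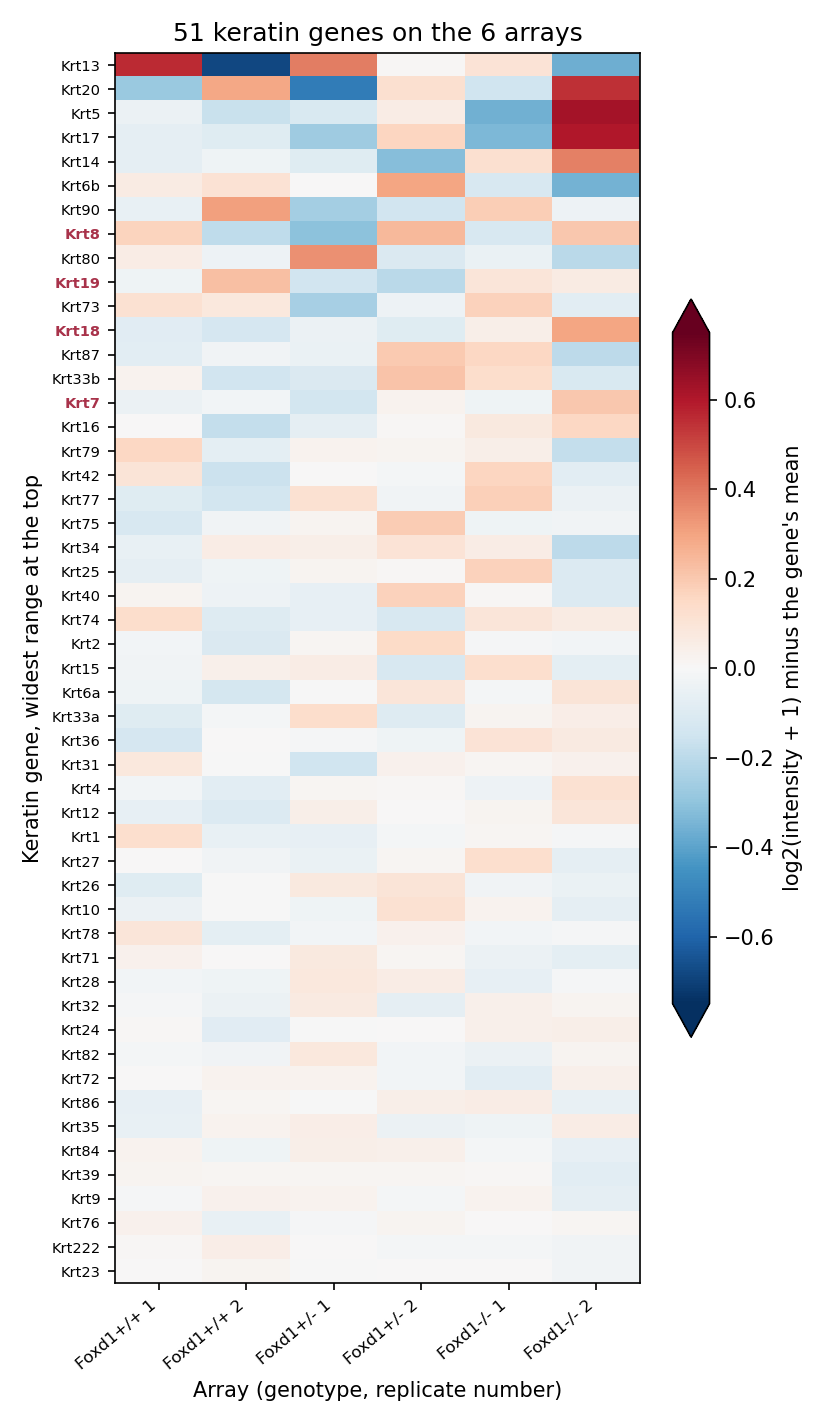
Log2(intensity + 1) of 51 keratin genes (rows, widest range at the top) on the 6 arrays (columns) as the deviation from each gene's mean, blue below and red above. The 4 members, Krt7, Krt8, Krt18 and Krt19, are in red bold type. Krt13 and Krt20 alternate with the replicate number in opposite directions, Krt5 and Krt17 are highest on Foxd1-/- array 2, and most rows are pale.

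Proteins that anchor keratin filaments at desmosomes and other junctions were measured by 24 of 26 listed genes, of which 12 were higher and 12 lower between Foxd1-/- and Foxd1+/+ (median log2 difference 0.003), with 0 passing in limma in either direction and 0 at an unadjusted p under 0.05 (2 with the replicate block). Desmoplakin, Dsp, which ties keratins to the desmosome, read 304 and 247 for Foxd1+/+, against 338 and 219 for Foxd1+/- and 406 and 349 for Foxd1-/-. Both Foxd1-/- arrays lay above the other 4, where 10.8% of all genes did not overlap in either direction. The log2 difference of Dsp from Foxd1+/+ was 0.46 ± 0.24 (SE; limma unadjusted p = 0.12). With the replicate block its limma unadjusted p was 0.0097, where 7.54% of all genes were under 0.05. Plakoglobin, Jup, differed by -0.09 ± 0.07, and Fam83h, which organises keratin bundles, by 0.17 ± 0.08.

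Epithelial junction and identity genes, which accompany simple keratins in epithelia, were lower in 18 of 30 measured members (of 32 listed) between Foxd1-/- and Foxd1+/+. Their median log2 difference was -0.03, with 0 passing in limma and 0 at an unadjusted p under 0.05 (4 with the replicate block). Of all genes 2.11% were under that p without the block and 7.54% with it. Epcam, the epithelial adhesion molecule, read 483 and 313, 396 and 425, and 359 and 226 in Foxd1+/+, Foxd1+/- and Foxd1-/-, with a log2 difference of -0.45 ± 0.30 (SE) between Foxd1-/- and Foxd1+/+. The epithelial regulator Grhl2 differed by -0.35 ± 0.13, the protease inhibitor Spint2 by -0.21 ± 0.09, the junction protein Tjp3 by 0.15 ± 0.09 and the splicing factor Esrp1 by -0.39 ± 0.25. The 4 keratins had a median of 0.08 in the same comparison, with 3 higher and 1 lower, and of 0.19 between Foxd1-/- and Foxd1+/- with all 4 higher, where 48.6% of all genes were. Between Foxd1+/- and Foxd1+/+ their median was -0.02, with 1 of 4 higher.

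Transcription factors known to act on keratin genes were measured by all 22 listed genes, of which 16 were higher between Foxd1-/- and Foxd1+/+ (median 0.04). In limma 0 passed and 1 was lower at an unadjusted p under 0.05 (4 in either direction with the replicate block). The shares of all genes under that p were 2.11% without the block and 7.54% with it. The 1 without the block, Gata3, a trophoblast and luminal epithelial factor, differed by -0.18 ± 0.06 (SE; limma unadjusted p = 0.035), and the AP-1 subunits Fos and Jund by 0.14 ± 0.08 each. Klf4, one of the delivered factors, read 254 to 306 on the 6 arrays, and whether its probe set reads the viral transcript, the cell's own or both was not tested. The Snail and Zeb repressors, named here for the E-box shown above, read 135 to 157 for Snai1, 222 to 292 for Snai2, 379 to 507 for Zeb1 and 163 to 253 for Zeb2 over the 6 arrays. Vim, which encodes the fibroblast filament protein, read 7254 to 8287 and differed by -0.08 ± 0.08 between Foxd1-/- and Foxd1+/+.

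Other cell types that could hold these keratins were followed by marker lists. Mesothelial markers summed to intensities of 4691 to 5588 in Foxd1+/+, 5095 to 5255 in Foxd1+/- and 4970 to 5119 in Foxd1-/-, with 4 of 12 higher between Foxd1-/- and Foxd1+/+ (median -0.05). Of their defining genes Msln read 2167 to 2654, Upk3b 111 to 204 and Wt1 68.9 to 79.5 over the 6 arrays. On Foxd1+/+ array 2, highest in Krt19, the list summed to 5588, also its highest value. On Foxd1+/- array 1, where Krt19 read 198, it summed to 5255, its second highest, with Msln at 2521, Wt1 at 79.5 and Upk3b at 111. By array, Upk3b read 153 and 204 for Foxd1+/+, 111 and 147 for Foxd1+/-, and 172 and 148 for Foxd1-/-. Msln read 2212 and 2654, 2521 and 2325, and 2303 and 2167 in the same order. Wt1 read 68.9 and 76.8, 79.5 and 72.3, and 70.0 and 71.5. The part of mesothelial cells in the Krt19 values was not tested. Trophoblast markers summed to 1074 to 1100, 1082 to 1152 and 1059 to 1178 in Foxd1+/+, Foxd1+/- and Foxd1-/-, with 6 of 12 higher (median 0.001), and the defining Cdx2 (44.1 to 51.7), Elf5 (36.5 to 41.2) and Tpbpa (22.2 to 23.1) varied by 1.17-fold at most. Stratified epidermis markers summed to 2357 to 3026, 2790 to 2881 and 2437 to 2841, with 8 of 17 higher (median -0.03), and included Sprr2b, an epidermal envelope gene, at -0.99 ± 0.24 (log2, SE; limma unadjusted p = 0.010). In bulk RNA, fewer cells of a type and less RNA per cell cannot be told apart.

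The lists for other cells of such cultures are given beside Krt18. Their summed intensities overlapped between Foxd1-/- and Foxd1+/+ for the mesenchymal, pluripotency and endothelial lists and did not overlap for macrophage markers. Compared within each replicate number, the mesenchymal sum was higher in Foxd1-/- on both (52031 against 44805, and 62578 against 56827). The pluripotency sum was lower in Foxd1-/- on both, and the endothelial sum was higher within replicate 1 and lower within replicate 2. Of 28 mesenchymal genes, 24 read higher in Foxd1-/- than in Foxd1+/+ (median 0.21), with summed intensities of 44805 to 56827 in Foxd1+/+, 46450 to 55160 in Foxd1+/- and 52031 to 62578 in Foxd1-/-. Macrophage markers read lower in 12 of 14 (median -0.19), with sums of 1998 to 2185, 2056 to 2287 and 1573 to 1712, and Lyz2 at -0.66 ± 0.12 and Csf1r at -0.16 ± 0.07 (log2, SE). Pluripotency genes were lower in 16 of 20 (median -0.12), with sums of 4109 to 7984, 5019 to 6248 and 3697 to 6289, and endothelial markers in 6 of 10 (median -0.01), with sums of 1281 to 1335, 1258 to 1323 and 1255 to 1400. None of these lists held a gene that passed in limma, and at an unadjusted limma p under 0.05 there were 2 mesenchymal genes higher and 1 macrophage, 1 endothelial and 2 pluripotency genes lower, where 2.11% of all genes passed in either direction. With the replicate block the limma counts at that p were 16 of 28 mesenchymal, 5 of 14 macrophage, 2 of 10 endothelial and 6 of 20 pluripotency genes, where 7.54% of all genes passed. Their part in the Krt18 difference was not tested.

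The genes whose pattern over the 6 arrays was most like each keratin were sought among 613 named genes that ranged over at least 1 on the log2 scale, and are given as a description with no test. Krt7 was followed most closely by the receptor gene Chrm4, the transcriptional repressor Prdm1, the interferon-induced Mx1, the complement inhibitor Serping1 and the adhesion receptor Adgrd1, with Pearson correlations between 0.98 and 0.99. All 5 read highest on Foxd1-/- array 2, where Mx1 read 63.2 against 28.2 to 41.8 on the other arrays. Krt18 was nearest to Xdh, Clec3b, Cbs, H2-T24 and Clec2d, with correlations of 0.88 to 0.96, again with each highest on Foxd1-/- array 2. Since Krt7 and Krt18 are highest on that array, the choice by likeness fixed this.

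Krt8 was nearest to Sez6, the semaphorin gene Sema5b, elastin (Eln), Xist and Ly6d, with correlations of 0.83 to 0.85. Krt19 had no close companion by this measure, since its 5 best, Pamr1, Mir382, the matrix gene Dpt, the tendon gene Tnmd and the imprinted Meg3, reached only 0.52 to 0.63. These are the highest of 613 correlations over 6 arrays for each keratin.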

How the data were processed

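Per the labels' protocols, 300 ng of total RNA went into biotin labelling for Affymetrix sense-target arrays. The authors deposited linear probe set intensity values for 28856 probe sets. The sources used here do not give the background correction, normalization or probe summary. Gene names came from the platform's annotation table, in which 21789 probe sets had 1 symbol, 1621 several and 5446 none, and single-symbol probe sets were used, the highest-mean one for the 999 genes with several, leaving 19938 genes. Whether keratin probe sets also read pseudogene transcripts was not tested. Log2(intensity + 1) was fitted across all genes with limma 3.58.1 (R 4.3.3), 1 mean per genotype over all 6 arrays (3 residual degrees of freedom), with Benjamini-Hochberg adjustment. The script was tested on simulated data. With 2 arrays a genotype, an exact rank test cannot go below p = 0.333. Figures used matplotlib 3.10.9.

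Array 2 minus array 1 differences correlated across genes between genotypes (r = 0.55, 0.73 and 0.73), so equal numbers were taken to pair arrays, from the data and not from the design. Alternatives were another pseudocount or none, a filter on dim genes, quantile normalization, averaged probe sets, the replicate block, fits of the compared genotypes only, an intensity trend and leaving out arrays. Members and lists were chosen with earlier results of these data known. Genes set out for naming were the members, Foxd1, the 4 smallest-p genes of each list between Foxd1-/- and Foxd1+/+, 7 fixed genes (Vim, Krt5, Krt14, Krt10, Krt20, Cdh1 and Epcam) and the 5 most similar genes per member. Of the smallest-p genes of the lists only a part is printed, and that part was not chosen by a rule. Others are said to be chosen for their role or after their values were seen.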

Additional observations from a re-analysis of the deposited data

How the results depend on the processing

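No gene tested passed the adjusted threshold in limma under the alternatives run, and the replicate block left every difference as it was and changed only its error: with the block the adjusted p of Krt18 between Foxd1-/- and Foxd1+/+ was 0.63, and the genes at an unadjusted p under 0.05 went from 421 to 1503. Restricting to genes above the median mean gave 142 and removed Krt7 and Krt18, which have no value under that filter. Directions turned only where arrays were left out. Leaving out each array in turn, the log2 difference between Foxd1-/- and Foxd1+/+ ranged from -0.0035 to 0.23 for Krt7, -0.13 to 0.23 for Krt8 and -0.15 to 0.11 for Krt19. Between Foxd1-/- and Foxd1+/- it ranged from -0.20 to 0.35 for Krt8, and between Foxd1+/- and Foxd1+/+ from -0.11 to 0.058 for Krt7, -0.30 to 0.26 for Krt8 and -0.56 to 0.47 for Foxd1. For Krt8 in Foxd1-/- against the mean of the other genotypes it ranged from -0.10 to 0.23. Alternatives added after seeing the data left out arrays 2 of Foxd1+/+ and Foxd1+/- together, or the 2 Uty-high arrays. Both leave out Foxd1+/+ array 2, so their Foxd1-/- minus Foxd1+/+ differences are by construction those without that array alone. These were -0.13 for Krt8 and 0.11 for Krt19. Without the Uty-high arrays Krt8 was also at -0.20 against Foxd1+/- and -0.16 against the mean of both. Without them the Foxd1+/- minus Foxd1+/+ difference was 0.069 for Krt7, 0.076 for Krt8, -0.0059 for Krt18 and 0.12 for Foxd1. The cause was not tested. Signal over background is unknown, which limits the dimmer keratins, and a lone array left in a genotype is assumed to vary like the others.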

Other observations

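Outside the keratins, the other intermediate filament genes were lower between Foxd1-/- and Foxd1+/+ in 13 of 17 measured members (median log2 difference -0.08). In limma 0 passed and 0 were at an unadjusted p under 0.05 (3 with the replicate block), where 2.11% of all genes were without the block and 7.54% with it. The lamin Lmnb2, of the nuclear envelope, differed by -0.21 ± 0.10, the neuronal filament gene Ina by -0.13 ± 0.07, the lens filament gene Bfsp1 by -0.13 ± 0.07 and nestin, Nes, of progenitor cells, by 0.17 ± 0.10 (SE, n = 2 per genotype). The widest swings, picked after the values were seen, were in the neurofilament genes. Nefl read 1363 and 813 for Foxd1+/+, against 1445 and 662 for Foxd1+/- and 976 and 231 for Foxd1-/-. Nefm read 163 and 102, 201 and 74.99, and 153 and 71.3 in the same order. Both were lower on array 2 in every genotype, and Nefl was lowest on Foxd1-/- array 2, where Krt7 and Krt18 were highest.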
